A study of Homo sapiens with 16 samples.

Results

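HS1 and HS2 are elements of the locus control region (LCR) of the beta-globin genes, named in the library after HBE1, the embryonic beta-like globin gene of that cluster. The inserts described here were all those whose name starts with HBE1-HS1 or HBE1-HS2 in the libraries of short inserts. They numbered 9 of 499 inserts: 4 unchanged inserts (Ctrl), 1 for each element in each of 2 strands (neg and pos), and 5 inserts with a mutated motif. Every insert was present with 4 barcodes, which gave 36 of 1996 barcoded constructs. The mutants were CDX4 (homeobox motif) and NFY (CCAAT box) in HS1neg, CDX4 and Usf2 (bHLH motif) in HS2neg, and AP-1 (bZIP motif) in HS2pos. HS1pos had a Ctrl only, and no motif was mutated in both strands of an element. Of these motifs, only CDX4 was mutated in both elements.

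The libraries were carried by K562, a human erythroleukaemia cell line with wild-type genotype per the labels, which is a tumour line and not a normal red cell precursor. They were placed in an episomal vector (EpiShort) or a lentiviral vector (LentiShort), with no drug or other treatment named. TSS-MPRA, a reporter assay that sequences the 5′ ends of capped RNA, gave both the RNA reads of each barcode and the position at which each read starts. Each vector had 2 RNA and 2 DNA libraries. No source used here says that the replicates were separate transfections or cultures, and the 4 barcodes of an insert share these libraries, so the p-values measure the spread between barcodes and may be technical. Libraries of the vectors were made separately, so an effect of the vector cannot be told apart from one of library preparation.

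The LCR is a group of DNase hypersensitive sites that lies upstream of the globin genes and acts on them as an enhancer in erythroid cells. HS2 is known as a strong enhancer whose activity depends on AP-1-like sites, which bind bZIP dimers such as NF-E2 and AP-1, and RNA is known to start within it. NF-Y binds CCAAT boxes, often a short distance upstream of start sites. USF proteins bind E boxes as bHLH dimers, and CDX4 is a homeobox factor of early blood formation. The motif names are those of the table, and a mutated motif does not identify the protein that bound it.

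The short libraries held 21571370 and 19020540 RNA reads in EpiShort and 11140433 and 11741702 in LentiShort. DNA reads numbered 15286382 in EpiShort replicate 1 but 1698930 in replicate 2, against 8614823 and 9989471 in LentiShort. The 9 inserts took between 0.568% and 0.689% of the RNA reads of a library. Their barcodes had at least 40 DNA reads in every library. RNA reads per barcode ranged from 11 to 61421, and the lowest belonged to mutants of HS2neg. Levels are given as RNA per DNA, the share of an insert in the RNA reads divided by its share in the DNA reads, as a geometric mean over 4 barcodes. A level of 1 is thus an insert that takes equal shares of both, and a level is relative to its own library.

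HS2pos was the strongest of the 4 Ctrl inserts in the episomal vector by a wide margin. Its level was 2.74 in EpiShort replicate 1 and 2.71 in replicate 2, with barcodes between 2.06 and 3.18 over both. It ranked 41 of 484 inserts in this vector. In LentiShort it stood at 2.48 and 2.18, with barcodes between 1.96 and 2.58, and ranked 64 of 494. The pair of replicates lay close together, and all barcodes were above a level of 1.

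The opposite strand of HS2 gave far less RNA. HS2neg Ctrl had levels of 0.0892 and 0.0800 in the EpiShort replicates and of 0.391 and 0.30 in LentiShort. No barcode of HS2neg reached the lowest barcode of HS2pos in either vector. On the log2 scale HS2neg was lower than HS2pos by 32.3-fold in EpiShort (-5.01 ± 0.20, SE, n = 4 barcodes per strand, limma, adjusted p = 8.67e-10) and by 6.78-fold in LentiShort (-2.76 ± 0.20, limma, adjusted p = 5.32e-07). Of the 6 elements measured in both strands, 3 (50%) differed between strands in EpiShort and 5 (83.3%) in LentiShort. In EpiShort HS2 had the lowest p of the 6. On RNA reads alone the HS2 differences were larger, -6.28 and -5.27 (limma, adjusted p = 7.37e-12 and 6.72e-16). These values are not divided by DNA reads. In the EpiShort replicates HS2pos had 33258 and 3677 DNA reads, against 12681 and 1474 for HS2neg. In LentiShort the DNA reads were 9814 and 12197 against 2097 and 2213.

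HS1 showed no such order. In EpiShort HS1neg Ctrl had levels of 0.128 and 0.108 and HS1pos Ctrl of 0.121 and 0.116, so that the strands overlapped. Their difference was -0.01 ± 0.18 (log2, SE, n = 4, limma, adjusted p = 0.936), with a 95% interval from -0.41 to 0.38. In LentiShort HS1neg stood at 2.46 and 2.17 against 1.23 and 0.969 for HS1pos, and no barcode of the neg strand fell to the level of the pos strand within a replicate. There HS1neg was 2.12-fold higher (1.09 ± 0.20, limma, adjusted p = 0.000498). Without division by DNA reads this difference was 0.70 and did not pass the test (limma, adjusted p = 0.148).

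The strand difference moved between vectors for both elements, and in both the neg strand gained on the pos strand in the lentiviral vector. The change from EpiShort to LentiShort was 1.10 ± 0.21 for HS1 (log2, SE, n = 4, limma, adjusted p = 0.000894) and 2.25 ± 0.25 for HS2 (limma, adjusted p = 3.60e-05). Of the 6 elements 66.7% passed this test. On RNA reads alone neither element passed it, at -0.26 for HS1 and 1.00 for HS2 (limma, adjusted p = 0.995 and 0.479). Relative to its own library, HS2pos had a level between 2.18 and 2.74 in all 4 pairs of libraries. HS1neg, HS1pos and HS2neg each had higher levels in both LentiShort replicates than in both EpiShort replicates. Levels are scaled to the totals of each library, so they do not show which strand changed between vectors, and this was not tested.

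Mutation of a motif lowered RNA per DNA past the threshold (limma, adjusted p under 0.05 over all mutant and Ctrl pairs) in 3 of 5 mutants in EpiShort and in 4 of 5 in LentiShort. Over all pairs 32.1% of 131 were lower in EpiShort and 22.8% of 136 in LentiShort, and among the motif mutants of named loci 43.8% of 48 and 41.2% of 51. With 5 mutants in all, nothing is read from the distance between these counts and shares. The median difference of the 5 mutants was -0.66 in EpiShort and -1.07 in LentiShort, against -0.22 and 0.03 over all pairs. The 7 tested motif mutants of HS3, HS4 and HS5 in EpiShort had a median of -0.83 with 3 lower, and the 8 in LentiShort a median of -0.40 with 4 lower. Every mutant barcode lay below every Ctrl barcode in the same 3 and 4 mutants, which was so for 29.8% and 24.3% of all pairs. The 2 mutants of HS1neg share 1 Ctrl, as do the 2 of HS2neg.

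The AP-1 mutant of HS2pos lost most of its RNA in the episomal vector. Its level was 0.180 and 0.144 in the EpiShort replicates, with barcodes between 0.128 and 0.211, against 2.06 to 3.18 for the Ctrl barcodes. The mutant was thus 16.9-fold lower (-4.08 ± 0.18, log2, SE, n = 4 barcodes per insert, limma, adjusted p = 5.90e-08). Among 131 pairs it was the second lowest difference, at rank 2. Even so, the lowest mutant barcode in EpiShort, at 0.128, was above the highest HS2neg Ctrl barcode, at 0.104.

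In the lentiviral vector the same mutation had a smaller effect. The mutant stood at 1.23 and 0.999 in the LentiShort replicates, with barcodes between 0.848 and 1.38, and the Ctrl barcodes began at 1.96. It was 2.10-fold lower (-1.07 ± 0.17, limma, adjusted p = 0.000972) and ranked 21 of 136 from the lowest. The effects in the vectors differed by 3.01 ± 0.18 on the log2 scale (95% interval 2.61 to 3.42, n = 4, limma, adjusted p = 3.54e-06). Across all pairs 24.4% of 131 differed between vectors, and this pair had the lowest p of the 5 mutants. Relative to their own libraries, the Ctrl stood at 2.73 in EpiShort and 2.32 in LentiShort, and the mutant at 0.161 and 1.11. Such levels do not show whether the Ctrl or the mutant changed between vectors, and this was not tested. On RNA reads alone the losses were -5.90 in EpiShort and -1.92 in LentiShort (limma, adjusted p = 3.61e-10 and 0.00127). These values are not divided by DNA reads. The Ctrl had 33258 and 3677 DNA reads in the EpiShort replicates, against 8564 and 1051 for the mutant. In LentiShort the DNA reads were 9814 and 12197 against 5322 and 7564.

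AP-1 was also mutated in both strands of HS4, another element of the LCR. Both of those mutants were lower in each vector, with differences of -2.23 in HS4neg and -2.97 in HS4pos in EpiShort and of -1.12 and -0.72 in LentiShort. In EpiShort the loss in HS2pos was larger than in HS4neg by -1.85 ± 0.35 (log2, SE, limma, adjusted p = 0.000160) and than in HS4pos by -1.11 ± 0.36 (limma, adjusted p = 0.0162). In LentiShort the differences were 0.05 ± 0.36 and -0.35 ± 0.29 and did not pass (limma, adjusted p = 0.917 and 0.291). Such comparisons of 1 motif between elements passed in 50% of 56 cases in EpiShort and 64.6% of 65 in LentiShort.

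Mutation of the CCAAT box in HS1neg, the NF-Y motif, showed the opposite order of the vectors. In LentiShort the mutant stood at 0.283 and 0.248, with barcodes between 0.204 and 0.340, against Ctrl levels of 2.46 and 2.17 with barcodes from 1.81 to 3.13. It was 8.73-fold lower (-3.13 ± 0.20, log2, SE, n = 4, limma, adjusted p = 2.07e-06), rank 3 of 136 from the lowest. In EpiShort the mutant stood at 0.0754 and 0.0730 against 0.128 and 0.108 for the Ctrl. That was 1.58-fold lower (-0.66 ± 0.19, limma, adjusted p = 0.0169).

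This EpiShort value depended on the DNA reads: RNA reads alone gave 0.45 (limma, adjusted p = 0.696), and the mutant had 37528 DNA reads in replicate 1 against 18412 for the Ctrl. With TMM scaling it was -0.33 and did not pass (edgeR, adjusted p = 0.359). The effect in LentiShort was lower than that in EpiShort by -2.46 ± 0.22 (95% interval -2.95 to -1.97, limma, adjusted p = 2.05e-05). Relative to their own libraries, the Ctrl stood at 0.117 in EpiShort and 2.31 in LentiShort, and the mutant at 0.0742 and 0.265. Whether the Ctrl or the mutant changed between vectors was not tested.

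NF-Y motifs were mutated in 5 other loci. Of these 3 were lower in EpiShort, with a median of -0.96, and 4 in LentiShort, with a median of -1.37. At the globin promoters the LentiShort effect was -2.82 for HBE1 and -1.37 for HBZ, the embryonic alpha-like globin. The HS1neg loss differed from that of the HBE1 promoter by -0.30 ± 0.26, which did not pass (limma, adjusted p = 0.311), and exceeded that of HBZ by -1.75 ± 0.27 (limma, adjusted p = 3.46e-05). In EpiShort the difference between HS1neg and HBE1 was 0.30 ± 0.34 and between HS1neg and HBZ 0.53 ± 0.41, and neither passed (limma, adjusted p = 0.463 and 0.285). The other NF-Y loci, named after their values were seen, were ACTB, JUN and RPLP1. The ACTB difference minus that of HS1neg was -1.05 ± 0.37 in EpiShort (limma, adjusted p = 0.0254), a larger loss at ACTB, and 1.33 ± 0.24 in LentiShort (adjusted p = 0.000185), a larger loss at HS1neg. Against JUN and RPLP1 the HS1neg loss was larger in LentiShort, by -2.49 ± 0.24 and -3.30 ± 0.32 (limma, adjusted p = 2.63e-07 for each), and the differences in EpiShort, -0.57 ± 0.31 and -0.28 ± 0.30, did not pass (adjusted p = 0.136 and 0.446).

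The Usf2 mutant of HS2neg had the lowest level of the 9 inserts in both vectors. Its levels were 0.0210 and 0.0224 in the EpiShort replicates and 0.0593 and 0.0350 in LentiShort. The mutant barcodes reached at most 0.0334 in EpiShort and 0.0934 in LentiShort, and the Ctrl barcodes began at 0.0683 and 0.232. It was lower than its Ctrl by 3.90-fold in EpiShort (-1.96 ± 0.24, log2, SE, n = 4, limma, adjusted p = 9.25e-05) and by 7.51-fold in LentiShort (-2.91 ± 0.28, limma, adjusted p = 3.92e-05). These were ranks 7 of 131 and 4 of 136 from the lowest. The mutant rested on few reads, 673 RNA reads in EpiShort and 157 in LentiShort over all barcodes and both replicates.

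The Usf2 effects differed between vectors by -0.95 ± 0.26 (limma, adjusted p = 0.0239). Without replicate 2 that difference was -0.63 and not past the threshold (limma, adjusted p = 0.316). It also did not pass with the replicate number as a fixed term (limma, adjusted p = 0.369) or on RNA reads alone (-1.04, limma, adjusted p = 0.30). The 2 other loci with a mutated Usf2 motif, named after their values were seen, were the promoters of NPRL3 and SF3B1. The difference there was 2.80 and 0.07 in EpiShort and 3.22 and 0.02 in LentiShort. The HS2neg effect was lower than both in EpiShort (limma, adjusted p = 2.84e-10 and 5.32e-05) and in LentiShort (adjusted p = 3.69e-08 and 1.11e-05).

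The CDX4 mutants had the smallest differences in RNA per DNA among the mutants described here, but this order was not tested. In HS1neg the mutant stood at 0.0976 and 0.0878 in EpiShort, overlapping the Ctrl, with a difference of -0.34 ± 0.24 (log2, SE, n = 4, limma, adjusted p = 0.290, 95% interval -0.87 to 0.18). In LentiShort it stood at 1.39 and 1.30, below the Ctrl at 2.46 and 2.17, and was 1.72-fold lower (-0.78 ± 0.22, limma, adjusted p = 0.0173). That call was not made on RNA reads alone (-0.54, adjusted p = 0.424).

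In HS2neg the CDX4 mutant had levels of 0.0696 and 0.0489 in EpiShort and of 0.518 and 0.296 in LentiShort, and its barcodes overlapped those of the Ctrl in both. Its differences were -0.53 ± 0.21 (limma, adjusted p = 0.0566, 95% interval -0.99 to -0.07) and 0.19 ± 0.25 (adjusted p = 0.602, 95% interval -0.37 to 0.76). On RNA reads alone they were -1.56 and -0.85 (limma, adjusted p = 0.100 and 0.184), and with TMM scaling the EpiShort value was -0.07 (edgeR, adjusted p = 0.854). The EpiShort value passed the threshold without mutant barcode 1 (-0.64, adjusted p = 0.0353) or without Ctrl barcode 3 (-0.63, adjusted p = 0.0473). The effects of the CDX4 mutations in HS1neg and HS2neg differed in LentiShort by -0.97 ± 0.33 (limma, adjusted p = 0.0164) but not past the threshold in EpiShort (0.19 ± 0.34, adjusted p = 0.667). Between vectors neither CDX4 mutant passed the test, with -0.44 ± 0.23 for HS1neg and 0.73 ± 0.35 for HS2neg (limma, adjusted p = 0.178 and 0.150). CDX4 was also mutated in the HBE1 promoter and in ACTB, the latter named after its values were seen. Differences there were -0.33 and -1.44 in EpiShort and -0.44 and 0.54 in LentiShort. Neither HS1neg nor HS2neg differed past the threshold from HBE1. The ACTB loss in EpiShort was larger than in either (limma, adjusted p = 0.0102 and 0.0208). In LentiShort ACTB differed from HS1neg (limma, adjusted p = 0.000581) but not past the threshold from HS2neg (adjusted p = 0.319).

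Start positions are counted along the 200 positions of the insert, and shares are means over barcodes of the share of RNA reads that start at a base. Position 128 was the leading start of HS1neg, HS2neg and HS2pos Ctrl. HS1neg was the most focused. In EpiShort replicates 1 and 2, 57.6% and 59.8% of its reads started at 128, and in LentiShort 60.9% in each replicate. A second start at 130 took 27.5% in EpiShort and 31.6% in LentiShort. Position 128 alone held the majority of HS1neg reads in all 4 libraries.

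The opposite strand of HS1 was dispersed. HS1pos needed 4 positions to cover 50% of its reads in every library and between 23 and 29 to cover 90%, against 1 and between 2 and 5 for HS1neg. Its leading start in EpiShort was 106, with 18.5%, followed by 81 with 13.9% and 128 with 13.7%. In LentiShort the order changed, with 22.0% at 128, 15.0% at 106 and 9.63% at 81. The profiles of the vectors lay 5.84 bp apart by earth mover distance, the mean shift in base pairs that turns one profile into the other. This exceeded the distance between replicates, 1.56 bp in EpiShort and 1.24 bp in LentiShort, and also the largest distance between barcodes within a vector, 4.44 and 4.67 bp.

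HS2neg Ctrl used 128 and 125. Its replicates had 41.5% and 34.3% at 128 in EpiShort and 46.7% and 49.7% in LentiShort, and the start at 125 took 26.0% and 27.8% in the vectors. HS2pos had 42.7% and 39.6% at 128 in EpiShort and 48.6% and 44.9% in LentiShort. Its further starts lay on both sides. In EpiShort 10.5% of reads started at 159, 8.22% at 138, 8.79% at 127 and 5.98% at 78, and in LentiShort 6.07%, 11.3%, 4.91% and 7.05%. The stretch from position 1 to 99 held 13.3% and 13.4% of HS2pos starts in the EpiShort replicates and 14.4% and 16.9% in LentiShort.

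The AP-1 mutant of HS2pos, with its large loss of RNA, kept its main start. Position 128 held 44.0% and 38.0% of its reads in EpiShort and 47.8% and 46.9% in LentiShort. The difference from Ctrl was -0.11 ± 3.56 percentage points in EpiShort (SE, n = 4, limma, adjusted p = 0.988, 95% interval -7.99 to 7.78) and 0.55 ± 2.92 in LentiShort (adjusted p = 0.903, 95% interval -6.01 to 7.10). The start at 138 held 8.01% in the EpiShort mutant and 12.2% in LentiShort, against 8.22% and 11.3% in the Ctrl. The start at 159 held 9.70% against 10.5% in EpiShort, where the barcodes overlapped. In LentiShort it held 11.8% against 6.07%, with mutant barcodes from 9.43% to 16.5% above those of the Ctrl, from 5.09% to 7.52%.

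The upstream start of HS2pos had few reads in the AP-1 mutant. At position 78 there were 3 of 3742 reads in EpiShort (0.0802%, 95% exact binomial interval 0.0165 to 0.234) and 18 of 16878 in LentiShort (0.107%, 0.0632 to 0.168), against 13685 of 246996 (5.54%) and 4340 of 63343 (6.85%) in the Ctrl. Such intervals cover counting error only, since they treat reads as independent molecules, which PCR copies are not. Whether molecular identifiers were used is not given in the sources used here. The stretch from 1 to 99 fell to 1.77% and 2.30% of starts in the EpiShort replicates and to 1.78% and 1.32% in LentiShort, below every Ctrl replicate. The stretch from 140 to 200 held more in each mutant replicate, at 27.7% and 27.6% against 20.5% and 22.9% in EpiShort and at 22.4% and 24.8% against 13.0% and 14.4% in LentiShort. Neither stretch was tested. The mean start moved downstream by 6.82 ± 0.88 positions in EpiShort (SE, n = 4, limma, adjusted p = 0.000554) and by 9.62 ± 1.10 in LentiShort (adjusted p = 0.000219). The median start did not move past the threshold, at 0.50 and 0 positions (adjusted p = 0.591 and 1).

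The output of single starts, the level multiplied by the share, sets these side by side. At 128 the output of the mutant was -4.09 below Ctrl in EpiShort and -1.05 in LentiShort on the log2 scale. At 78 it was -9.71 and -7.34, the first resting on 3 reads. The start at 159 stood at -4.19 and -0.11. Position 78 was thus nearly without reads in the mutant in both vectors, including LentiShort, where the mutant kept 1.23 and 0.999 in level. These single positions were chosen after their values were seen and have no test.

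Past the threshold for the mean start were 1 of 5 mutants tested in EpiShort and 2 of 4 in LentiShort, where 32.5% of 126 and 43.9% of 132 pairs passed. For the share at the main start the counts were 1 of 5 and 2 of 4, against 39.7% and 47%. The main start was itself taken from these same profiles, over Ctrl and mutants together. Over all pairs the median difference in that share was -2.28 percentage points in EpiShort and -4.48 in LentiShort. The Usf2 mutant was left out of the LentiShort start tests, because its barcodes had between 11 and 38 reads in a library and 50 were required.

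The CDX4 mutant of HS2neg lost the main start of that element, while its RNA per DNA did not pass the test in either vector, which does not show that the amount was the same. At position 128 only 4 of 1423 reads started in EpiShort (0.281%) and 0 of 965 in LentiShort, which allows a share of up to 0.311% if a count of 0 is taken to allow up to 3 reads, the limit used for each count of 0 here (95% exact binomial limit 0.382%). The Ctrl had 1122 of 2939 (38.2%) and 794 of 1694 (46.9%). As a mean over barcodes the share dropped by 37.8 ± 3.2 percentage points in EpiShort (SE, n = 3 mutant and 4 Ctrl barcodes, limma, adjusted p = 8.17e-06) and by 48.2 ± 3.3 in LentiShort (n = 4 each, adjusted p = 1.33e-06). By size these ranked 6 of 126 and 7 of 132 pairs. At most 1 mutant barcode had 200 RNA reads in both replicates of a vector, so at that higher minimum the mutant could not be tested.

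Reads of the HS2neg CDX4 mutant started instead a few bases downstream and upstream. Position 131 held 23.7% and 28.1% in the EpiShort replicates and 26.9% and 29.4% in LentiShort, where the Ctrl had at most 0.896% in any replicate. The lowest mutant barcode there was at 4.55% and 16.6% in the vectors, above the highest Ctrl barcode at 0.843% and 1.52%. In EpiShort, mutant barcode 3 had only 25 and 11 RNA reads in the replicates, too few for the start tests. The EpiShort means and barcode ranges given here include it with equal weight, so their extremes can rest on very few reads. With reads pooled over barcodes, 441 of 1423 mutant reads started at 131 in EpiShort, against 11 of 2939 in the Ctrl. Position 129 held 18.3% in EpiShort and 13.9% in LentiShort, against 4.88% and 2.97% in the Ctrl. The barcodes overlapped there in both vectors, from 3.88% to 29.1% against 3.44% to 7.36% in EpiShort and from 5.20% to 29.3% against 0.962% to 5.39% in LentiShort. Position 118 held 8.65% and 8.32% against 1.39% and 1.91%. Its barcodes did not overlap in EpiShort, where the mutant began at 3.33% and the Ctrl ended at 2.84%, but did in LentiShort, where the mutant began at 1.21% and the Ctrl ended at 3.77%. The start at 125 held 14.2% in EpiShort against 26.0% in the Ctrl, and the mutant barcodes, from 5.34% to 20.1%, lay below those of the Ctrl, from 23.6% to 30.0%. In LentiShort it held 22.8% against 27.8%, and the barcodes overlapped, from 12.3% to 40.3% against 19.8% to 33.1%. All of these positions were chosen after their values were seen and have no test.

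These starts lay on both sides of 128, and the mean start of the HS2neg CDX4 mutant did not pass the test. It differed by -0.19 ± 1.23 positions in EpiShort (limma, adjusted p = 0.926) and by -2.70 ± 1.08 in LentiShort (adjusted p = 0.0813, and 0.0460 when only positions within 50 of the main start were used). The table does not give the mutated bases, so how far they lie from position 128 was not analysed here.

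The CDX4 mutant of HS1neg gained a start upstream. At position 96 it had 339 of 6500 reads in EpiShort (5.22%) and 1638 of 14135 in LentiShort (11.6%), against 35 of 6326 (0.553%) and 19 of 19594 (0.0970%) in the Ctrl. Each replicate showed it, with 5.27% and 4.36% in EpiShort and 13.7% and 10.2% in LentiShort as means over barcodes. The lowest mutant barcode was at 3.01% in EpiShort and 9.68% in LentiShort, above the highest Ctrl barcode at 0.746% and 0.329%. Position 96, like 92 below, was chosen after its values were seen and has no test. A start at 92, which held 275 of 19594 reads of the Ctrl in LentiShort, had 0 of 14135 in the mutant, which at 3 reads allows a share of up to 0.0212% (exact limit 0.0261%). In EpiShort that start was not absent from the mutant, with 23 of 6500 reads (0.354%) against 131 of 6326 (2.07%) in the Ctrl, and the barcodes overlapped.

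In LentiShort the mean start of the HS1neg CDX4 mutant lay upstream of Ctrl by -3.40 ± 0.51 positions (SE, n = 4, limma, adjusted p = 0.00120), and the median start did not move (0 positions, adjusted p = 1). The share at 128 fell by 9.02 ± 2.67 percentage points, from 60.9% to 51.9% (limma, adjusted p = 0.0180). That call was lost without replicate 1 (-7.73, limma, adjusted p = 0.109) and with the replicate number as a fixed term (limma, adjusted p = 0.0748). In EpiShort the differences were -0.54 ± 0.84 positions and -3.24 ± 3.18 percentage points and did not pass (limma, adjusted p = 0.671 and 0.516).

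The NF-Y mutant of HS1neg had its reads at the same leading starts as its Ctrl. Position 128 held 58.7% and 55.9% of its reads in the EpiShort replicates and 58.6% and 59.8% in LentiShort, and 130 held 26.0% and 28.5% in the vectors. The share at 128 differed by -1.45 ± 3.20 percentage points in EpiShort (SE, n = 4, limma, adjusted p = 0.815) and by -1.77 ± 2.87 in LentiShort (adjusted p = 0.651, 95% interval -8.23 to 4.68). The mean start differed by 1.5 ± 0.73 and -0.43 ± 0.47 positions (adjusted p = 0.154 and 0.549). A minor start at 92 held 4.94% of the LentiShort reads of the mutant and 1.40% of those of the Ctrl, 222 of 4497 and 275 of 19594. As means over barcodes the mutant replicates had 6.13% and 3.29%. In EpiShort the shares of reads were 2.53% and 2.07%. The output at 92 was nevertheless below Ctrl, at -1.25 in LentiShort and -0.22 in EpiShort on the log2 scale. At 157 the mutant had 61 of 4497 reads in LentiShort (1.36%), with barcodes from 0.902% to 1.88%. The Ctrl had 0 of 19594 there, which at 3 reads allows a share of up to 0.0153% (exact limit 0.0188%). The CDX4 mutant of HS1neg had 203 of 14135 (1.44%), with its lowest barcode at 0%. In EpiShort 157 held 2.37% of reads in the NF-Y mutant and 0.996% in the Ctrl, and the barcodes overlapped. Positions 92 and 157 were chosen after their values were seen and have no test.

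The Usf2 mutant of HS2neg also had its reads at 128 and 125. In EpiShort 271 of 673 reads started at 128 (40.3%) and 138 at 125 (20.5%), and the share at 128 differed from Ctrl by 1.77 ± 5.11 percentage points over 2 mutant barcodes (SE, limma, adjusted p = 0.840, 95% interval -9.90 to 13.4). In LentiShort 77 of 157 reads started at 128 (49.0%) and 45 at 125 (28.7%), with no test at that depth. The starts at 131 and 118 that the CDX4 mutant used had 0 of 673 reads in the EpiShort Usf2 mutant, which at 3 reads allows a share of up to 0.446% (exact limit 0.547%).

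By earth mover distance the mutants of HS1 and HS2 ranged from the upper to the lower part of all pairs. The AP-1 mutant was 6.85 bp from its Ctrl in EpiShort and 9.70 bp in LentiShort, ranks 43 of 133 and 42 of 136 from the top. The NF-Y mutant, at 1.51 and 1.69 bp, ranked 112 and 113, and both distances were close to those between its own replicates, 1.48 and 1.49 bp. The CDX4 mutant of HS1neg, at 1.90 and 4.52 bp, ranked 104 and 73, with replicates 0.925 and 1.19 bp apart. The CDX4 mutant of HS2neg, at 3.21 and 4.32 bp, ranked 85 and 75. Its own replicates were 3.18 and 1.26 bp apart and its barcodes a median of 5.52 and 3.49 bp, so the EpiShort distance was close to that between replicates and below that between barcodes. The Usf2 mutant, at 3.37 and 6.86 bp, ranked 82 and 55, and in LentiShort its own replicates lay further apart, at 9.27 bp. The AP-1 distances exceeded those between its own replicates, 0.907 and 1.20 bp. The median over all pairs was 4.79 bp in EpiShort and 4.88 bp in LentiShort.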

How the data were processed

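RNA and DNA reads per barcode are whole counts in the deposited tables, per the file headers. The deposited start values are a signal per position, the share of RNA reads of a barcode that start there. Between 99.8% and 99.9% of them gave whole reads within 0.05. The submitters' processing notes name STAR 2.7.9a and hg38. The other steps are not given in the sources used here. Each table stacks 4 blocks of 1996 rows, and replicate numbers rest on the order of the sample names in the table name. The blocks without DNA reads (4 over 2 tables, identical in both) were not used.

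For each barcode log2((RNA + 1)/(DNA + 1)) was averaged over both replicates and tested with limma 3.58.1 in R 4.3.3 on 4 against 4 barcodes. The fit covered all pairs that passed, of 137. It required at least 20 DNA reads in each replicate, 2 barcodes per insert and a mean of 10 RNA reads per barcode in either insert. Differences are on this log2 scale, and the added 1 shrinks those of barcodes with few reads. P-values were adjusted by Benjamini-Hochberg over all pairs, over 6 elements for strands, and called under 0.05. Levels were scaled by library totals. Start tests took barcodes with 50 RNA reads in each replicate, and the main start of a locus was taken over Ctrl and mutants of both vectors. Differences between vectors used the same barcode in both. Alternatives used edgeR 4.0.16, exact permutation, other minimums, left-out barcodes and replicates, and a replicate block. In the replicate block fit each replicate entered as its own value, with the replicate number as a fixed term and a correlation between the 2 values of a barcode. Replicate numbers are shared by mutant and Ctrl because both come from the same library. The scripts were tested on simulated data. Intervals used scipy 1.17.1, tables python 3.11.15, numpy 2.4.6 and pandas 2.3.3.

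Full statistics are given for every Ctrl, for mutants past the threshold in either vector with a difference of at least 1, and for mutants past it in start position by at least 10 positions. All other mutants were described too, because they are few. Members and lists were chosen with earlier results of these data known. The test of strand differences between vectors, the comparison of 1 motif between elements and the shares by stretch of the insert were added after seeing the data. A planned test of mutation effects between strands had no member. Sequences and coordinates of these inserts were not used here.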

Additional observations from a re-analysis of the deposited data

Results flagged for a closer look

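Effects that differed between the vectors by a test of the difference itself were those of 3 mutants and 2 strand comparisons (LentiShort minus EpiShort, log2, limma). The AP-1 mutation of HS2pos had a difference of 3.01 (adjusted p = 3.54e-06), with 2.92 in replicate 1 and 3.11 in replicate 2. The NF-Y mutation of HS1neg had -2.46 (adjusted p = 2.05e-05), with -2.36 and -2.57. The Usf2 mutation of HS2neg had -0.95 (adjusted p = 0.0239), with -0.63 and -1.26. The strand difference, neg minus pos, moved by 1.10 in HS1 (adjusted p = 0.000894) and by 2.25 in HS2 (adjusted p = 3.60e-05). In each of them an effect of the vector cannot be told apart from one of library preparation.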

How the results depend on the processing

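Counts of called members stayed within 1.5 times in 126 of 137 alternative counts and fell in the other 11. Under exact two-sided permutation over barcodes, whose smallest p for 4 against 4 is 0.0286, 0 of 5 mutants passed adjustment in each vector (adjusted p from 0.0720 in EpiShort and from 0.0670 in LentiShort), with 3 and 4 under an unadjusted 0.05, and 0 of 2 strand differences in EpiShort (HS2 adjusted p = 0.0571, 1 unadjusted), a limit of the number of barcodes. On RNA reads alone (limma) 1 strand difference passed in LentiShort and 0 strand differences moved between vectors (0 unadjusted). The median start gave 0 calls in each vector (limma, 0 unadjusted). At 200 RNA reads per barcode the main-start share gave 0 calls in EpiShort (0 unadjusted) and 1 in LentiShort, with fewer mutants tested. Without 1 replicate that LentiShort count ranged from 1 to 2, and with the replicate block it was 1; the block also ended the Usf2 difference between vectors and no other call.

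Single values that changed sign had not passed the test, except NFY in EpiShort and the move of the HS1 strand difference between vectors, both on RNA reads alone. On RNA reads alone they were 0.25 for HS1neg CDX4 and 0.45 for NFY in EpiShort, -0.85 for HS2neg CDX4 in LentiShort, 0.96 for the HS1 strand difference in EpiShort and -0.26 for its move between vectors. With edgeR the HS1neg CDX4 value was 0.0094 (TMM), and the HS1 strand difference in EpiShort was 0.50 (TMM) or 0.051 (library totals); the latter was 0.053 at 100 DNA reads and between -0.11 and 0.076 without 1 replicate or barcode, with leave-one-out values of 0.02, 0.06, 0.05 and 0.03. Without 1 replicate, HS2neg CDX4 in LentiShort was -0.017 or 0.41, the EpiShort mean start of HS2neg CDX4 -0.56 or 0.18 and of Usf2 -0.51 or 1.05, and the main-start share -3.92 or 1.02 for NFY, -6.06 or 9.61 for Usf2 and -1.58 or 1.37 for AP-1 in EpiShort, and -0.83 or 1.92 for AP-1 in LentiShort. The EpiShort mean start of HS2neg CDX4 was 0.054 at 10 reads, the median start of Usf2 -0.38, and the LentiShort AP-1 share -1.01 within 50 positions. The cause was not tested. The planned test of mutation effects between strands was not run, having no member. Depth limits the Usf2 mutant most, with 157 RNA reads in LentiShort.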
